A study of Mus musculus with 24 samples.

Results

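The genes described here encode the E1α subunit of pyruvate dehydrogenase and 8 enzymes or enzyme subunits of the mitochondrial tricarboxylic acid (TCA) cycle. They are *Pdha1*, *Cs*, *Idh3a*, *Idh3b*, *Idh3g*, *Ogdh*, *Sucla2*, *Fh1* and *Mdh2*, and were taken by name: every probe set annotated with 1 of these symbols, current or older, was counted. This gave 12 of the 12422 probe sets tested, for 9 of 8251 genes. A probe set is a group of short probes against 1 transcript, and where a gene had several the brightest stands for it. *Idh3a*, *Idh3g* and *Sucla2* each had a second probe set.

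Whole liver RNA of 24 male mice, aged 9 to 12 weeks and on a mixed SV129/C57BL/6 background, was hybridised to Affymetrix U74Av2 arrays, 1 mouse per array. Wild-type and PPARα-null mice were each divided into 4 groups of 3 mice. Control mice ate control diet and stayed at room temperature, HS mice were heated at 42 °C for 40 min, WY mice ate the PPARα agonist WY-14,643 at 500 ppm for 1 week, and WY+HS mice had both. The labels list several sampling times after heating without tying an array to one, and the study's text places these livers a few hours after heating. PPARα is the nuclear receptor that hepatocytes use to switch on fatty acid breakdown, and the comparisons ask whether the response to heat or to WY depends on it. Array medians ran from 15.2 to 40.5 before normalization, so the arrays were quantile normalized. Changes are given on the log2 scale of intensities raised to a floor of 15.7, ± the SE of the limma fit, and a change passed the test at a Benjamini-Hochberg adjusted p under 0.05 over all 12422 probe sets. *Ppara* itself read 298 to 357 in wild-type and 153 to 185 in PPARα-null control mice (log2 difference -0.92 ± 0.22, limma adjusted p = 0.0594). It passed the test after HS (-0.73, limma adjusted p = 0.0316) and after WY (-1.10, limma adjusted p = 0.00224). After HS 1 wild-type mouse (181) overlapped the null mice. No source used here says whether the *Ppara* probes lie in the disrupted part of the gene.

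Pyruvate dehydrogenase turns the pyruvate made by glycolysis into acetyl-CoA, and the TCA cycle oxidises that acetyl group, passing electrons to the respiratory chain. In liver the same acetyl-CoA pool is also fed by fatty acid oxidation, and cycle intermediates are drawn off for glucose, lipid and amino acid synthesis. Pyruvate dehydrogenase kinases switch the complex off, so that fat is burned while pyruvate is kept for glucose. Several of these enzymes are built of subunits from different genes, among them NAD-linked isocitrate dehydrogenase (*Idh3a*, *Idh3b* and *Idh3g*).

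The members divided into 3 sets by their behaviour over the 8 groups. *Pdha1* and *Idh3g* fell after HS in PPARα-null mice and not detectably in wild-type mice. *Mdh2* and *Cs* rose after WY in wild-type mice. *Ogdh*, *Sucla2*, *Fh1*, *Idh3a* and *Idh3b* passed the test in none of the 14 comparisons. Of the 9 genes, 8 had a mean above the floor. In whole liver, fewer cells that use a gene and less RNA per cell cannot be told apart.

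*Pdha1*, the catalytic E1α subunit through which the kinases control the complex, lies on chromosome X (GRCm38.p6, 160122219 to 160138430). *Idh3g*, the γ subunit of NAD-linked isocitrate dehydrogenase, lies on chromosome X too (73778963 to 73786897), and the other 7 members are autosomal. The 250 bases before the RefSeq start sites of these 2 genes and of *Cs* and *Mdh2* are shown because they belong to the members that changed. They are chrX:160138431-160138680 (minus strand), chrX:73786898-73787147 (minus strand), chr10:128337477-128337726 (plus strand) and chr5:135778399-135778648 (plus strand) of GRCm38.p6, written 5′ to 3′ on the gene's strand from RefSeq, with capitals for a match to any of the 5 motifs searched.
Pdha1: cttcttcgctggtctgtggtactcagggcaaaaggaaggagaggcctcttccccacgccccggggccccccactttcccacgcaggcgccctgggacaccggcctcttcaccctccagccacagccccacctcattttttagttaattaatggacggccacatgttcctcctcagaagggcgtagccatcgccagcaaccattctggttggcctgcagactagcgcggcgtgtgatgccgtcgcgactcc
Idh3g: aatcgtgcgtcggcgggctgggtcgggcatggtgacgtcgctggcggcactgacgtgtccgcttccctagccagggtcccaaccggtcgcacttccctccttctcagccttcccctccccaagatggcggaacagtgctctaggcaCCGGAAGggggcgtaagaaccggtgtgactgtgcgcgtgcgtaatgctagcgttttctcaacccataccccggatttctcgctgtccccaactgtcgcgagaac
Cs: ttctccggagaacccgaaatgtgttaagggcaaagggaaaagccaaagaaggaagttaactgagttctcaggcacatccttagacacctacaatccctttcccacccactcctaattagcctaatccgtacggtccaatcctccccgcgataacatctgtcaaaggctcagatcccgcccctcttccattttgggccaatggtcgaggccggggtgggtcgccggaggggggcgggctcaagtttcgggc
Mdh2: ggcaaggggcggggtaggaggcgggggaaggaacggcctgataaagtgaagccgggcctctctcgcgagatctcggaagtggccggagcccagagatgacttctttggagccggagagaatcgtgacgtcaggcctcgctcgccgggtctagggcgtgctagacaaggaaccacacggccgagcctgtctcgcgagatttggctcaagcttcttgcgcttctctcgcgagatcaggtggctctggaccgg
The only capitals are the CCGGAAG core of ETS factors in *Idh3g*, whose first base lies at -104 from the start site.

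Motifs were searched on both strands over 250 bases before to 50 after the start site, in 8 members with a RefSeq promoter (*Idh3a* was not in the table) and in the promoters of all 27025 genes of the table, counting a gene once over its start sites. CCGGAAG was found for 2 members, *Idh3g* and *Idh3b*, and for 9.93% of all genes. GCGCATGCG, the core bound by NRF1, was found for 1 member, *Ogdh*, and for 1.95% of genes. The heat shock element GAANNTTC was found for 1 member, *Idh3b*, and for 9.04%. TCAAGGTCA, the element bound by oestrogen-related receptors, was found for 0 of the 8 members and for 0.466% of genes. GTCANAGGT, the centre of the direct repeat bound by PPARα with its partner, was likewise found for 0 members, and for 1.33%. These windows are short, and the letters alone do not show binding.

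*Pdha1* read 338, 432 and 345 in wild-type control mice and 374, 369.6 and 349.6 after HS (log2 change -0.02 ± 0.13, 95% interval -0.29 to 0.26, limma adjusted p = 1). In PPARα-null mice it read 258, 373 and 331 in controls and 162, 196 and 179 after HS (-0.83 ± 0.13, limma adjusted p = 0.000971). All 3 heated null mice lay below all 3 null controls, and below every other mouse in the series. With WY before the heat, null mice read 338, 277 and 346, again within the range of their controls. The difference between WY+HS and HS in null mice was 0.83 ± 0.13 (limma adjusted p = 0.000563).

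*Idh3g* followed the same course. It read 214, 189.7 and 201 in wild-type controls and 198, 222 and 209 after HS (0.06 ± 0.15, interval -0.27 to 0.39, limma adjusted p = 1). Null controls read 170.5, 198 and 137 and heated null mice 75.4, 68.8 and 116, a change of -0.98 ± 0.15 (limma adjusted p = 0.00102). The highest heated null mouse, mouse 18, lay below the lowest null control. After WY+HS the null mice read 166, 188 and 176, above all heated null mice (1.06 ± 0.15, limma adjusted p = 0.000344). The second, dim *Idh3g* probe set read 16.1 to 31.3 in heated and 12.1 to 33.7 in control null mice, so the groups overlapped.

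Thus 2 of 9 members were lower after HS in null mice, against 3.89% of all probe sets, and the median change of the 9 was 0.02 against 0 over all genes. Genes at the floor enter that last median with a change of 0, and only 5444 of the 8251 genes had a mean above the floor. In wild-type mice HS moved 0 members, against 0.0403% of probe sets in either direction. It also moved 0 members at an unadjusted limma p under 0.05 and 0 by the analysis of variance with Scheffe's test that the methods name. Of the 12422 probe sets, 665 had such an unadjusted p. The 2 responses differed by genotype in the test of the difference itself. The HS by genotype interaction was -0.81 ± 0.18 for *Pdha1* (limma adjusted p = 0.0358) and -1.04 ± 0.22 for *Idh3g* (limma adjusted p = 0.0232), where 0.942% of probe sets had a lower interaction. Both HS changes missed the threshold with no scaling (limma adjusted p = 0.139 and 0.231) and in a fit of the compared arrays alone (limma adjusted p = 0.172 and 0.246). With the mean of its probe sets in place of the brightest, the *Idh3g* change was -0.46 (limma adjusted p = 0.407). The interactions were less stable: *Pdha1* kept its call in 20 of 34 alternatives and *Idh3g* in 22, and leaving out any of wild-type mice 3, 5 and 6 or null mice 14 and 16 lost both.

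The WY by HS interaction in null mice was 0.97 ± 0.18 for *Pdha1* (limma adjusted p = 0.0132) and 0.89 ± 0.22 for *Idh3g* (limma adjusted p = 0.0488). These were 2 of 9 members, against 1.16% of probe sets higher. The *Idh3g* value lies at the threshold and lost the call in 27 of 34 alternatives. WY+HS against HS in null mice was higher for the same 2 of 9 members, against 6.05% of probe sets. Both calls were lost with no scaling and in a fit of the compared arrays alone, and with the mean of its probe sets the *Idh3g* difference was 0.55 (limma adjusted p = 0.252). By limma, WY+HS against control moved 0 members in null mice, against 0.0161% of probe sets, with 2 at an unadjusted p under 0.05 (*Idh3a* and *Sucla2*). WY alone moved 0 as well, against 0.00805%, with 0 unadjusted. Of the 12422 probe sets, 610 had an unadjusted limma p under 0.05 for WY+HS and 429 for WY alone. Scheffe's test gave 0 members for each. The comparisons with HS and with WY+HS share the null control or HS mice, so they are not independent of each other.

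**Figure D1:**
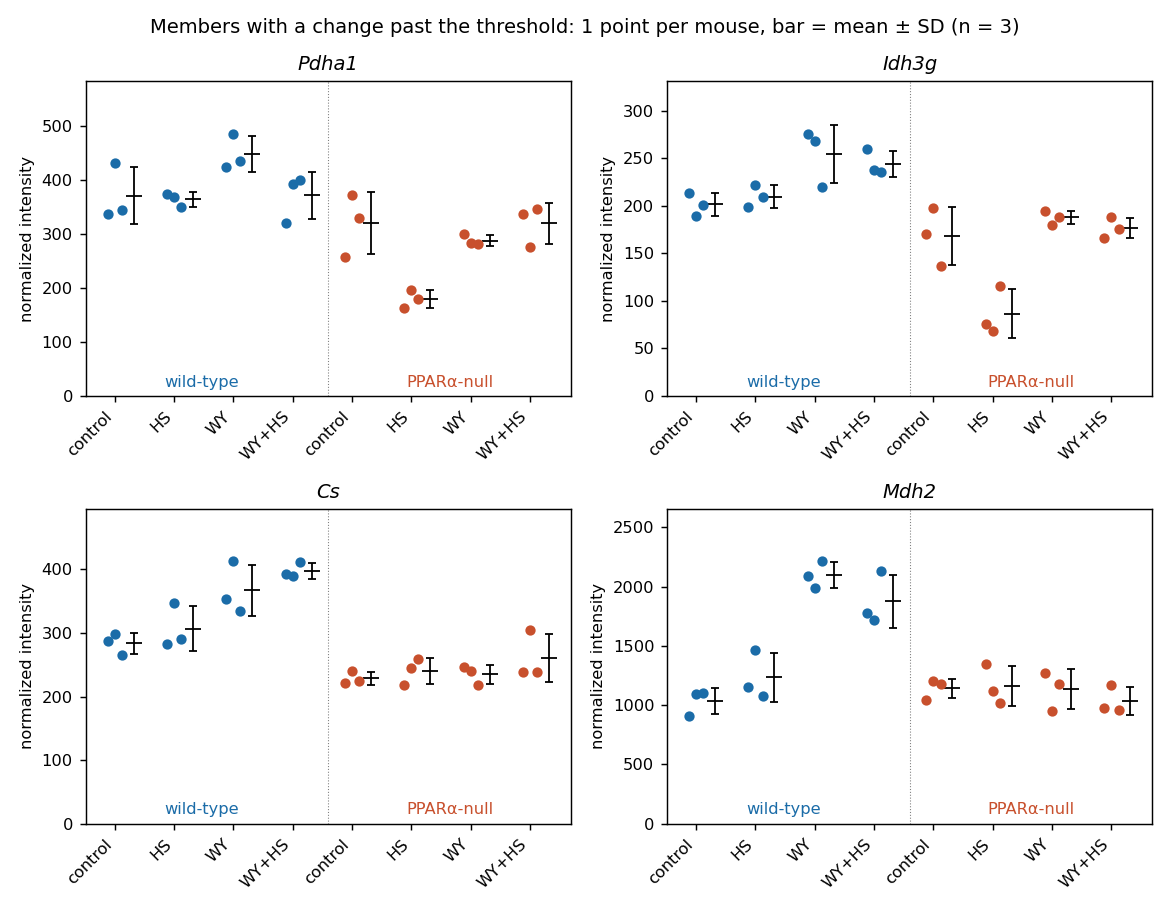
Normalized intensity (y axis, linear, from 0) of *Pdha1*, *Idh3g*, *Cs* and *Mdh2* in each of the 8 groups (x axis), with 1 point per mouse and a bar for the mean ± SD of 3 mice. Heated PPARα-null mice sit lowest for *Pdha1* (162 to 196) and *Idh3g* (68.8 to 116), and wild-type mice given WY sit highest for *Mdh2* (1991 to 2215).

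*Mdh2*, the mitochondrial malate dehydrogenase that regenerates oxaloacetate, read 909, 1093 and 1106 in wild-type controls and 2088, 1991 and 2215 after WY. Its change of 1.02 ± 0.14 was a 2.03-fold rise (limma adjusted p = 8.34e-05), called in all 35 alternatives. After WY+HS wild-type mice read 1776, 1721 and 2135 (0.86 ± 0.14, limma adjusted p = 0.000445). All 6 wild-type mice given WY lay above the other 18 mice, of which the highest read 1470. In null mice *Mdh2* read 1048, 1202 and 1177 in controls and 1273, 949 and 1183 after WY (-0.02 ± 0.14, interval -0.31 to 0.28, limma adjusted p = 1). The WY by genotype interaction was -1.04 ± 0.20 (limma adjusted p = 0.00374). It missed the threshold when arrays were scaled to 1 common median (-0.91) and with no scaling (-1.25, limma adjusted p = 0.173).

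*Cs*, citrate synthase, which joins acetyl-CoA to oxaloacetate, rose less. It read 288, 298 and 266 in wild-type controls, 353, 413 and 335 after WY and 392, 389 and 412 after WY+HS. Both groups given WY lay above all 3 controls. The changes were 0.36 ± 0.10 after WY (limma adjusted p = 0.0286) and 0.49 ± 0.10 after WY+HS (limma adjusted p = 0.00389). The first lost the call in 8 of 35 alternatives, among them those without wild-type control mouse 1 or 3 and without WY mouse 7 or 8. In null mice *Cs* read 221, 240.2 and 224 in controls and 246, 241 and 218 after WY (0.04 ± 0.10, limma adjusted p = 1). Its WY by genotype interaction of -0.33 missed the test (interval -0.63 to -0.02, limma adjusted p = 0.293).

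Hence 2 of 9 members were higher after WY in wild-type mice, against 5.59% of probe sets. The median change of the 9 was 0.16, against 0 over all genes, floored ones included. After WY+HS the same 2 members were higher, against 5.23% of probe sets. With no scaling both WY+HS calls were lost, at 0.30 for *Cs* and 0.64 for *Mdh2* (limma adjusted p = 0.776 and 0.328). By limma, adding HS to WY moved 0 members in wild-type mice, against 0.427% of probe sets, with 1 at an unadjusted p under 0.05 (*Sucla2*) and 0 by Scheffe's test. Unadjusted, 1023 of the 12422 probe sets passed in that comparison. With no scaling 3 members were lower there (*Pdha1*, *Ogdh* and *Sucla2*), where the median over all probe sets moved by -0.37. Over probe sets above the floor on all arrays it moved by -0.69. Across the alternatives the lowest changes of these members were -0.93, -0.69 and -0.80. *Mdh2* was the 1 member with a lower WY by genotype interaction, against 2.94% of probe sets. *Pdha1* and *Idh3g* read 424.5 to 487 and 219.5 to 276 after WY in wild-type mice. Their changes of 0.28 (interval 0.003 to 0.56) and 0.33 (interval 0.004 to 0.66) missed the test (limma adjusted p = 0.247 for each).

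Between genotypes, 0 members differed by limma in control mice, against 0.845% of probe sets, with 3 at an unadjusted p under 0.05 (*Cs*, *Idh3a* and *Sucla2*) and 0 by Scheffe's test. An unadjusted limma p under 0.05 was met by 1249 of the 12422 probe sets. Without null control mouse 15, *Idh3a* passed the test. *Sucla2* and *Cs* did not overlap between these groups. Of all probe sets, 6.72% lay fully above and 6.45% fully below in null controls. All 3 null controls read above all 3 wild-type controls for *Sucla2* (429 to 459 against 357.5 to 402.5), but 0.21 ± 0.06 did not pass the test (limma adjusted p = 0.0997). For *Cs* they read below (221 to 240.2 against 266 to 298), and -0.31 ± 0.10 did not pass either (limma adjusted p = 0.200). After HS 3 members were lower in null mice, against 7.69% of probe sets. They were *Pdha1* (-1.03 ± 0.13, limma adjusted p = 5.85e-05), *Idh3g* (-1.31 ± 0.15, limma adjusted p = 3e-05) and *Cs* (-0.35 ± 0.10, limma adjusted p = 0.0299). The *Cs* call was lost in 6 of 35 alternatives, among them those without wild-type mouse 5 or null mouse 16 or 17. After WY 3 members were lower in null mice, against 6.65% of probe sets. They were *Pdha1* (-0.64 ± 0.13, limma adjusted p = 0.00288), *Cs* (-0.64 ± 0.10, limma adjusted p = 0.000328) and *Mdh2* (-0.90 ± 0.14, limma adjusted p = 0.000265).

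**Figure D2:**
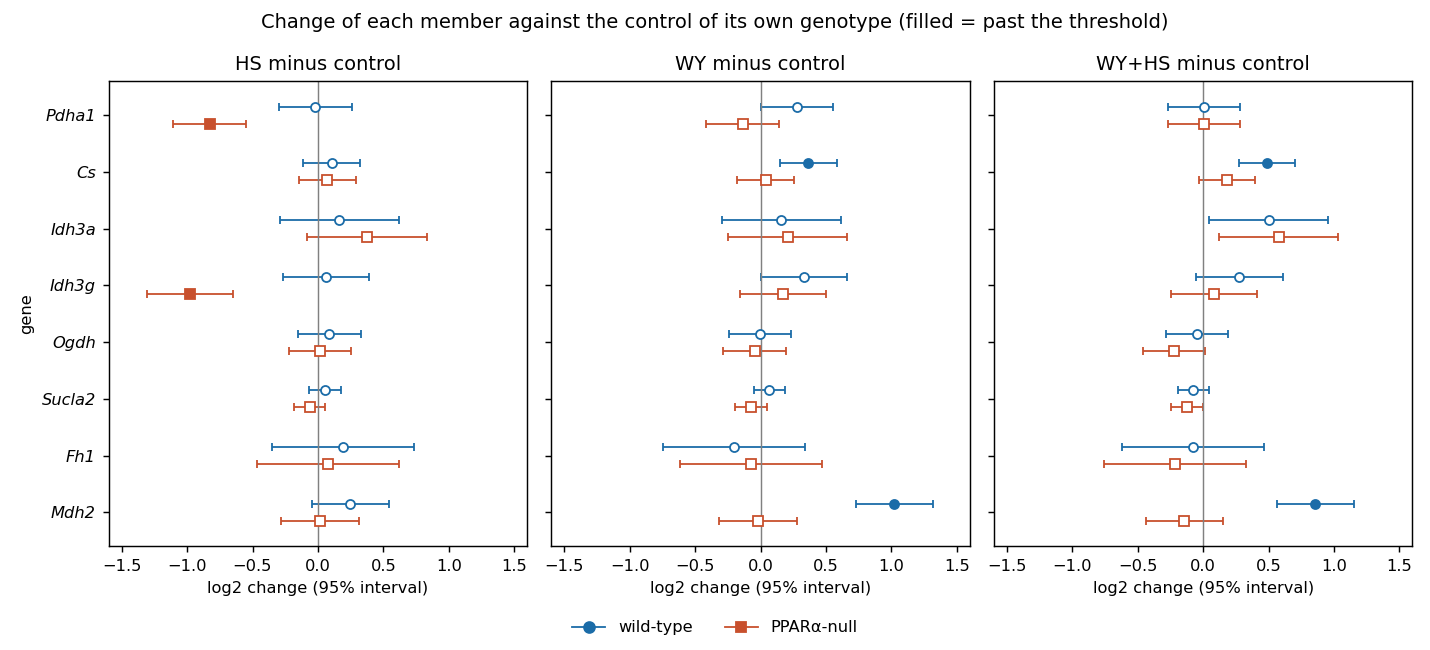
Log2 change with 95% interval (x axis) of the 8 members measured above the floor (y axis), for HS, WY and WY+HS against the control of the same genotype, with filled symbols past the threshold. *Pdha1* (-0.83) and *Idh3g* (-0.98) lie to the left for HS in PPARα-null mice, and *Mdh2* (1.02) lies to the right for WY in wild-type mice.

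Ordered by group mean, *Pdha1* ran from 449 in wild-type WY mice to 179 in heated null mice, a 2.51-fold range. Only 2 neighbouring groups in that order did not overlap: wild-type WY over wild-type WY+HS, and null WY over null HS. *Idh3g* ran from 255 in wild-type WY mice to 86.8 in heated null mice, and separated between wild-type WY+HS and wild-type HS and between null controls and heated null mice. *Mdh2* ran from 2098 in wild-type WY mice to 1036 in wild-type controls, and separated only between wild-type WY+HS and wild-type HS. *Cs* ran from 398 in wild-type WY+HS mice to 228.5 in null controls, and each neighbouring pair overlapped.

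*Ogdh* and *Fh1* stood apart from *Pdha1* in heated null mice. *Ogdh*, the E1 subunit of 2-oxoglutarate dehydrogenase, read 475, 509 and 439.5 in null controls and 531, 534 and 387 after HS (0.02 ± 0.11, interval -0.22 to 0.26, limma adjusted p = 1). *Fh1*, fumarase, read 984, 736 and 633 in null controls and 1057, 1082 and 468 after HS (0.08 ± 0.26, interval -0.47 to 0.62, limma adjusted p = 1). For both genes, mouse 18 read lowest of the heated null mice while the other 2 read above all null controls. Without mouse 18 the changes became 0.17 for *Ogdh* (limma adjusted p = 0.392) and 0.47 for *Fh1* (limma adjusted p = 0.155), and -0.83 for *Pdha1* and -1.21 for *Idh3g* (limma adjusted p = 0.00202 and 8.94e-06). Without mouse 18, 4 members passed the test for WY+HS against HS in null mice, *Ogdh* and *Fh1* lower and *Pdha1* and *Idh3g* higher. With all mice, 7.03% of all genes were higher and 5.62% lower in that comparison. Mouse 18 was singled out from these same values. Without mouse 16 or mouse 17 instead, the HS change was -0.06 in each case for *Ogdh*, and -0.115 and -0.133 for *Fh1*. Neither gene then passed the test for WY+HS against HS.

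*Sucla2*, the subunit of the ATP-forming succinyl-CoA synthetase, read 355 to 459 over all 24 mice. It ranged 1.22-fold between group means, and its interval for HS in null mice was -0.18 to 0.06. Its probe set carries the suffix with which the manufacturer marks probes shared by a sequence family, so the reading may not come from this gene alone. The second *Sucla2* probe set was dim (22.0 to 68.9) and passed no test.

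The other subunits of NAD-linked isocitrate dehydrogenase were dim or at the floor. *Idh3a*, the catalytic subunit, read 17.1 to 58.1, close to the floor, and its second probe set lay at the floor on all 24 arrays. It read 34.4 to 42.0 in wild-type controls, 47.3 to 58.1 after WY+HS and 17.1 to 35.9 in null controls, and its WY+HS change of 0.50 in wild-type mice missed the test (interval 0.04 to 0.96, limma adjusted p = 0.188). *Idh3b* lay at the floor on 23 of 24 arrays and has no measurable change. For HS in null mice, where *Idh3g* fell, *Idh3a* read 23.0, 17.1 and 35.9 in controls and 26.4, 33.7 and 34.7 after HS (0.37 ± 0.22, interval -0.08 to 0.83, limma adjusted p = 0.407), and the groups overlapped.

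**Figure D3:**
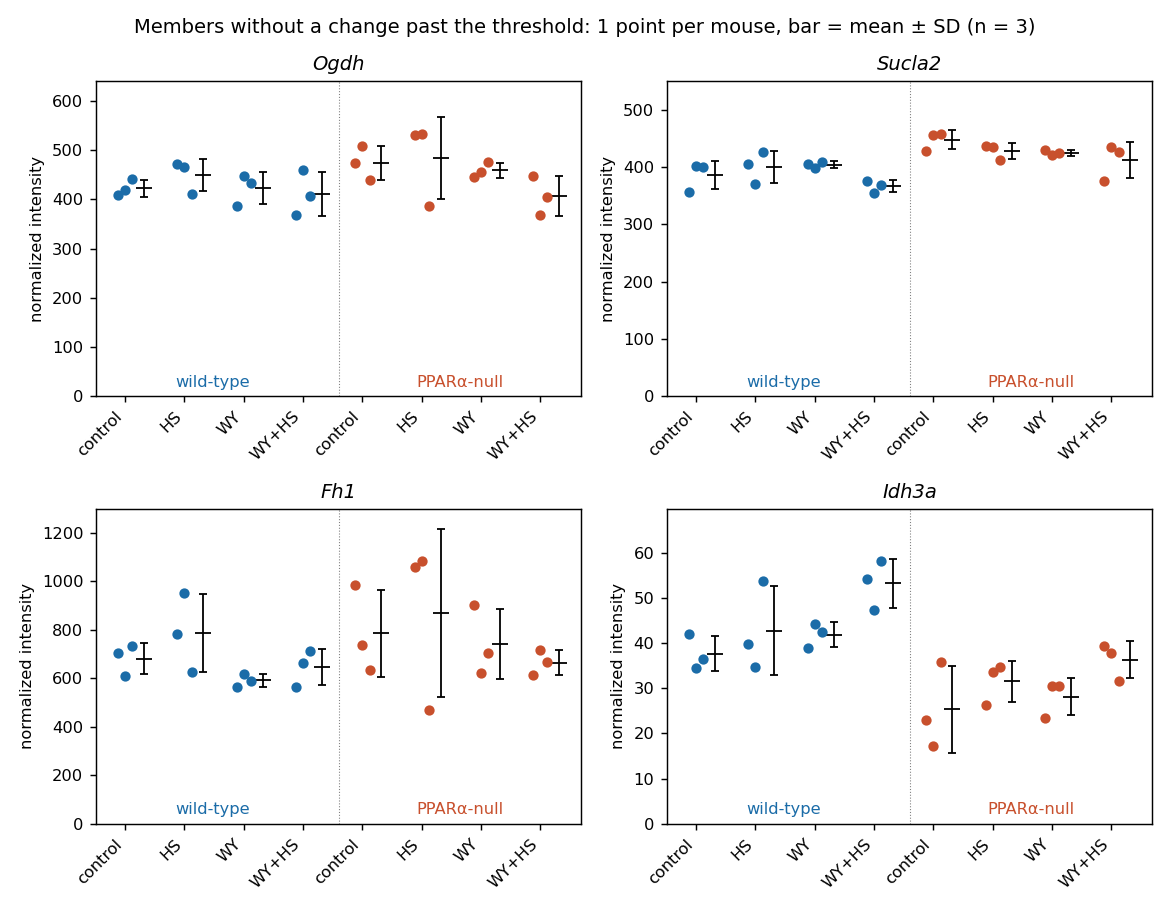
Normalized intensity (y axis, linear, from 0) of *Ogdh*, *Sucla2*, *Fh1* and *Idh3a* in each of the 8 groups (x axis), with 1 point per mouse and a bar for the mean ± SD of 3 mice. For *Fh1* the heated PPARα-null mice are spread from 468 to 1082, and *Sucla2* stays between 355 and 459.

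Over the 24 mice the log2 levels of *Pdha1* and *Idh3g* had a Pearson r of 0.85, *Cs* and *Mdh2* 0.77, and *Ogdh* and *Fh1* 0.70, while *Cs* and *Sucla2* had -0.67. Pairs across the 3 sets were also high, with 0.72 for *Cs* and *Idh3a*, 0.65 for *Cs* and *Idh3g* and 0.60 for *Pdha1* and *Cs*. Within the set that passed no test, *Idh3a* had -0.55 with *Ogdh*, -0.63 with *Sucla2* and -0.45 with *Fh1*. These describe 24 points that share 8 group means and 1 normalization. The genes whose profile was most like the mean standardized profile of the 8 members above the floor, among 3845 genes above the floor on all arrays, were *Mrap* (r = 0.87), *Cycs* (0.87), *Gpd1* (0.84), *Ndufab1* (0.83) and *Abhd16a* (0.83), over the 24 mice. That mean does not stand for every member. Against the mean of the other members, r was 0.635 for *Mdh2*, 0.53 for *Cs*, 0.50 for *Pdha1* and 0.33 for *Idh3g*. It was 0.09 for *Idh3a*, -0.27 for *Fh1*, -0.31 for *Ogdh* and -0.57 for *Sucla2*.

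Other genes of the pathway gave a wider view. Of 33 listed, 27 had a probe set and 24 a mean above the floor. After HS in null mice 0 were higher and 3 lower, with a median of -0.17 over the 27. Over all 8251 genes 3.44% were higher and 4.48% lower in that comparison. *Suclg1*, the shared subunit of succinyl-CoA synthetase, read 540.5, 633 and 558 in null controls and 435, 393 and 447 after HS (-0.44 ± 0.07, limma adjusted p = 0.000586). *Sdhb*, the iron-sulphur subunit of succinate dehydrogenase, read 1266, 1377 and 1224 against 842, 952 and 1044 (-0.45 ± 0.08, limma adjusted p = 0.00252). *Sdhc*, a membrane anchor of the same enzyme, changed by -0.23 ± 0.06 (limma adjusted p = 0.0335). For all 3 genes the heated null mice lay below all null controls, as they did for 8.75% of all probe sets. *Suclg1* was the 1 gene of the 27 with an HS by genotype interaction (-0.39 ± 0.09, limma adjusted p = 0.0402). That call was lost with a common median, with no scaling and in a fit of the compared arrays alone, and without mouse 18 *Sdhb* had one as well. Without mouse 18 the genes lower after HS became 6, adding *Pdk1*, *Pcx* and *Idh2*, and with no scaling or in a fit of the compared arrays alone there were 0. With a common median 4 were lower: *Suclg1*, *Suclg2*, *Sdhb* and *Idh1*. The share of all genes lower without mouse 18 was not computed, so that count of 6 has no background beside it.

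None of the measured partners of *Pdha1* in its complex passed the test after HS in null mice. *Pdhb*, the E1β subunit, changed by -0.20 (interval -0.39 to -0.02, limma adjusted p = 0.224), *Dld*, the E3 subunit, by -0.17 (interval -0.38 to 0.05, limma adjusted p = 0.454) and *Dlat*, the E2 subunit, by -0.38 (interval -1.15 to 0.39, limma adjusted p = 0.798). *Dlat* was dim, at 62.6, 49.5 and 37.3 in null controls and -0.07 (below the floor), 50.4 and 66.1 after HS. Whether *Pdha1* differs from these partners was not tested. Second probe sets disagreed for *Dlst*, the E2 subunit of 2-oxoglutarate dehydrogenase, with -0.03 by the brighter and -0.81 by the other (limma adjusted p = 1 and 0.0171). They disagreed too for *Pcx*, pyruvate carboxylase, with -0.36 and 0.94 (limma adjusted p = 0.0537 and 0.000688), and for *Slc25a1*, the mitochondrial citrate carrier, with 0.03 and -0.55 (limma adjusted p = 1 and 0.0376).

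After WY in wild-type mice 10 of the 27 were higher and 0 lower, with a median of 0.22, where 6.68% of all genes were higher and 6.15% lower. *Pdk4*, the kinase that switches pyruvate dehydrogenase off, read 27.2, 11.5 and 17.1 in controls and 771, 239 and 611.5 after WY, a change of 4.64 ± 0.47 on floored values (limma adjusted p = 3.3e-06). *Me1*, the cytosolic malic enzyme that makes NADPH, read 135, 176 and 159.5 against 1864, 1420.0 and 1742 (3.42 ± 0.31, limma adjusted p = 1.02e-06). *Slc25a10*, the mitochondrial dicarboxylate carrier, rose by 1.47 ± 0.20 (limma adjusted p = 8.37e-05). In these genes all 3 WY mice stood far above all controls.

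Within the cycle, *Dlst* rose by 0.93 ± 0.11 (limma adjusted p = 2.88e-05), *Suclg1* by 0.76 ± 0.07 (limma adjusted p = 4.92e-07), *Suclg2* by 0.51 ± 0.15 (limma adjusted p = 0.0414) and *Sdhc* by 0.22 ± 0.06 (limma adjusted p = 0.0295). *Idh1*, the cytosolic NADP-linked isocitrate dehydrogenase, rose by 0.86 ± 0.14 (limma adjusted p = 0.000326). In the pyruvate dehydrogenase complex *Pdhb* rose by 0.32 ± 0.09 (limma adjusted p = 0.0250) and *Dld*, which the 2-oxoglutarate dehydrogenase complex shares, by 0.58 ± 0.10 (limma adjusted p = 0.000908). The WY by genotype interaction was lower for 3.55% of all genes and for 6 of the 27: *Pdk4*, *Dlst*, *Suclg1*, *Idh1*, *Me1* and *Slc25a10*. With no scaling it held for 3 (*Pdk4*, *Me1* and *Slc25a10*). By the other *Dlst* probe set this interaction was -0.68 (limma adjusted p = 0.208).

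**Figure D4:**
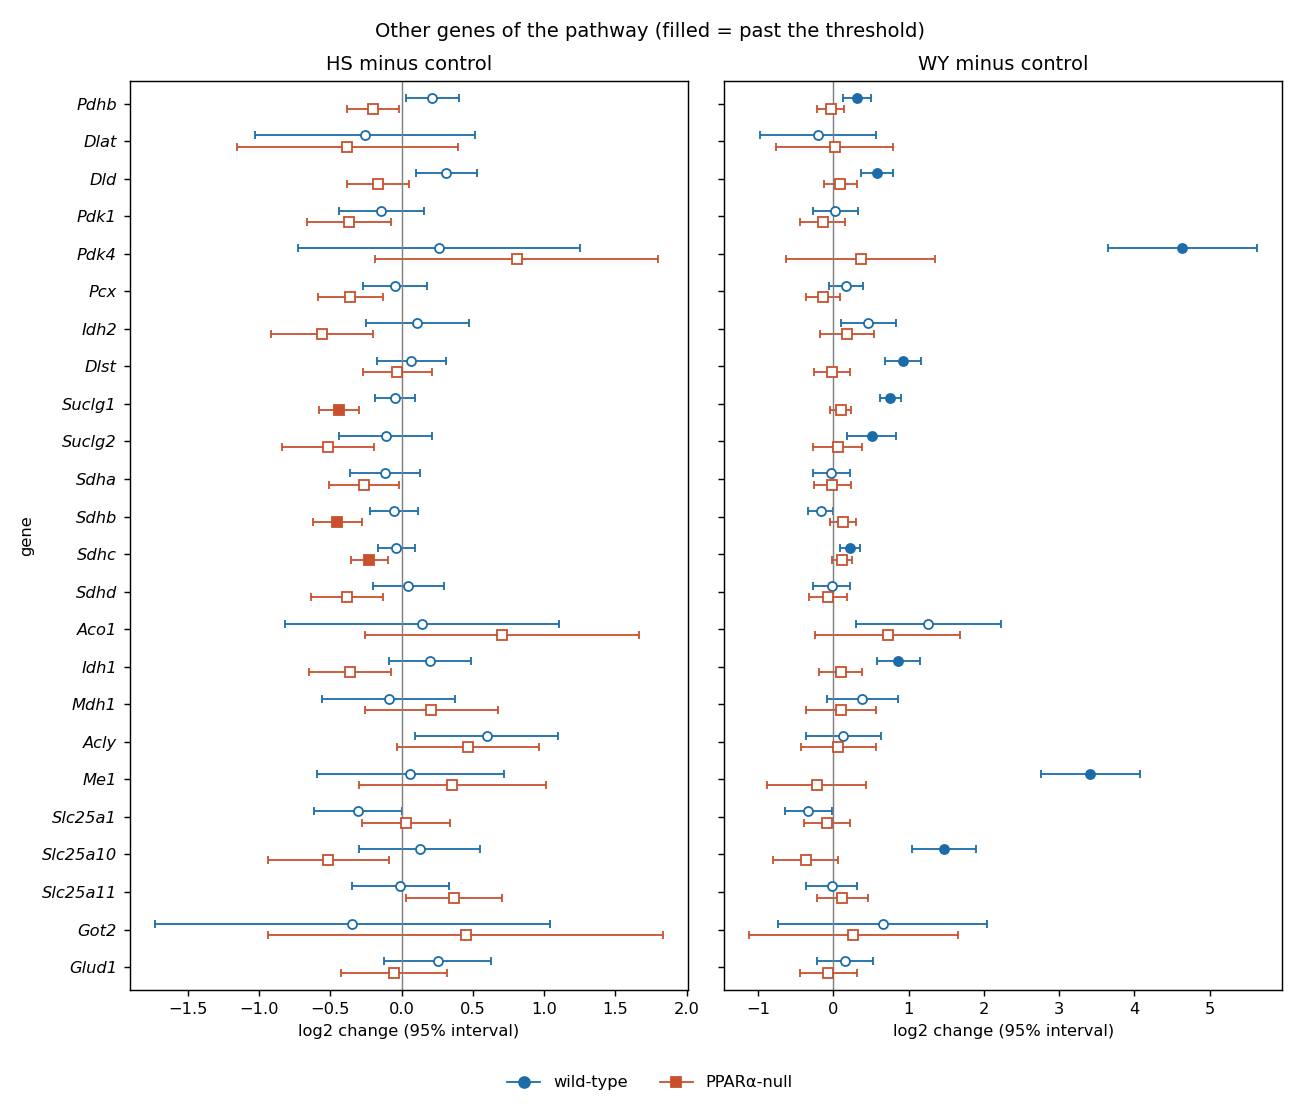
Log2 change with 95% interval (x axis, scaled separately in each panel) of the 24 other pathway genes with a mean above the floor (y axis), for HS and WY against the control of the same genotype, with filled symbols past the threshold. For WY the filled wild-type symbols all lie to the right, up to 4.64 for *Pdk4*, and for HS the 3 filled PPARα-null symbols lie to the left.

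Neighbouring mitochondrial pathways were set beside these by counts. Of 65 genes for subunits of oxidative phosphorylation, 26 were higher and 0 lower after WY in wild-type mice (median 0.28), and 2 were higher and 11 lower after HS in null mice (median -0.04). With arrays scaled to 1 common median the first count was 7, and without mouse 18 the second was 9 higher and 11 lower. Of 16 mitochondrial fatty acid oxidation genes, 13 were higher after WY in wild-type mice (median 0.78), and 3 were lower after HS in null mice (median -0.13), or 6 without mouse 18. With no scaling, 0 genes of either list passed the test for HS in null mice. With all mice, the medians over all 8251 genes, floored ones included, were 0 in both comparisons. Of these genes 6.68% were higher after WY in wild-type mice, and 3.44% higher and 4.48% lower after HS in null mice. Shares in the fit without mouse 18 were not computed.

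The 2 genes that fell in heated null mice are both X-linked. In that comparison 9 of 259 X-linked genes (3.47%) were lower, against 361 of 7975 autosomal genes (4.53%).

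Markers of other cells moved in the same heated null mice. Their summed intensity ran from 1305 to 1527 in null controls and 1863 to 2332 after HS for 7 stellate cell and fibroblast markers (3 higher: *Col1a1*, *Col3a1* and *Des*). For 6 neutrophil markers it ran from 175 to 266 and 325 to 385 (2 higher, *S100a8* and *S100a9*), and for 7 endothelial markers from 670.2 to 866 and 902.5 to 1219 (2 higher, *Cdh5* and *Vwf*). *S100a9* lay at the floor in null controls and *Ngp* in both groups, and *Camp* (0.41), *Mpo* (-0.07) and *Ltf* (-0.355) were not called. Of the other endothelial markers, *Pecam1* (-0.12) and *Tek* (-0.15) were lower and *Kdr* (0.25), *Tie1* (0.36) and *Eng* (0.375) higher without a call. For 7 lymphocyte markers the sum ran from 645 to 956 and 1029 to 1215, with *Ms4a1* higher. *Cd79b* (0.40) and *Cd79a* (-0.83) changed in opposite directions without a call. The means of *Cd3e*, *Cd3g*, *Cd8a* and *Ptprc* were at the floor in both groups. For 9 macrophage markers the ranges, 450.1 to 726 and 667 to 851.5, overlapped (1 higher, *Cd14*, with *Cd68*, *Adgre1* and *Marco* at the floor in both groups). Without a call, *Lyz2* (1.43), *C1qb* (0.30), *Clec4f* (0.29) and *Csf1r* (0.24) were higher and *C1qa* (-0.265) lower. The ranges overlapped too for 9 striated muscle markers (180.2 to 263 and 172 to 1043). Of these *Tnni2* was higher (0.33), from the floor in null controls. Without a call, *Acta1* (3.39), *Myl1* (1.76), *Tnnt3* (1.55), *Tnnc2* (0.79) and *Mylpf* (0.38) were higher. *Ckm* (-0.94), *Actn3* (-0.525) and *Pvalb* (-0.01) were lower without a call. For 2 erythroid markers the ranges did not overlap, at 1151 to 2156 and 2221 to 2916, although neither gene passed the test (*Hba-a1* 0.815, *Alas2* -0.66). The 7 hepatocyte markers summed to 36100 to 36830 in null controls and 34550 to 35940 after HS (0 called). In wild-type mice after WY 3 of the 7 hepatocyte markers were lower, with sums of 30240 to 32170 against 35680 to 35790. The sums were lower with no overlap for endothelial markers too (457 to 547 against 761 to 935, *Kdr* and *Eng* lower), for stellate cell and fibroblast markers (1093 to 1298 against 1396 to 1685, *Dcn* lower) and for macrophage markers (414 to 502 against 514 to 649, 0 called). In the stellate cell and fibroblast list *Col3a1* (0.87), *Vim* (0.20) and *Col1a2* (0.02) were higher without a call. Among macrophage markers *Cd68* (0.78) and *Cd14* (0.69) were higher, and *Clec4f* (-1.015), *C1qa* (-0.64), *Lyz2* (-0.395), *Csf1r* (-0.365) and *C1qb* (-0.05) lower. *Adgre1* and *Marco* lay at the floor. The sums of lymphocyte markers overlapped (*Cd79a* lower), as did those of neutrophil, striated muscle and erythroid markers. Among lymphocyte markers *Ms4a1* (0.42) was higher and *Cd79b* (-0.29) lower without a call. The part of these shifts in the changes of *Pdha1*, *Idh3g*, *Mdh2* and *Cs* was not tested.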

How the data were processed

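RNA of whole liver from 24 mice, 8 groups of 3 by the labels, was measured on U74Av2 arrays. The deposited table holds linear intensities per probe set, which the authors read from the scans with GeneChip Operating Software and analysed in Rosetta Resolver. Values reach below 0, and no source used here names the method that summarised probes. Of 12488 probe sets, 66 without a value were left out. Symbols came from the platform annotation, updated through RefSeq (10833 probe sets had 1 symbol, 396 several and 1193 none, and only the first kind was named).

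Intensities were quantile normalized over 24 arrays, raised to a floor of 15.7 (the size of the 10th percentile) and taken to log2. At the floor lay 42.9% of values, which limits dim genes, and the number of arrays limits precision. The 14 comparisons came from 1 limma fit (version 3.58.1, R 4.3.3) with a mean per group and Benjamini-Hochberg adjustment over 12422 probe sets. The fit was tested on simulated data. Alternatives changed the scaling, floor, scale, weights, moderation, filter, arrays fitted, test and probe set, and left out each array. The members, lists and named genes were chosen with earlier results of these data known: all members, pathway genes past the threshold for WY in wild-type or HS in null mice or for an interaction with genotype, and the 5 genes closest in profile. Each mouse gave 1 array, and p-values cover the spread between these mice.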

Additional observations from a re-analysis of the deposited data

Results flagged for a closer look

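The effect of HS differed between genotypes for *Pdha1* (interaction -0.81 on the log2 scale, limma adjusted p = 0.0358) and *Idh3g* (-1.04, limma adjusted p = 0.0232), lower in PPARα-null mice. The effect of WY differed between genotypes for *Mdh2* (-1.04, limma adjusted p = 0.00374), for which WY raised the level in wild-type mice. Within PPARα-null mice the effect of HS differed between diets for *Pdha1* (0.97, limma adjusted p = 0.0132) and *Idh3g* (0.89, limma adjusted p = 0.0488), both higher when WY preceded the heat. With 3 mice per group no sample was tested as an outlier.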

How the results depend on the processing

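Over 35 alternatives, 24 of them leaving out 1 array, the 19 changes that passed the test were recomputed 660 times, kept their call 575 times and lost it 85 times, and 0 reversed. Leaving out an array of a group outside a comparison cannot alter its change and moves only the shared spread. Calls kept in those alternatives therefore say little. Of 487 recomputed counts of members past the threshold, 421 stayed within 1.5 times. With no scaling the count was 0 for HS in null mice, 0 for WY+HS in wild-type mice, 0 for WY+HS against HS in null mice, 0 for each of the 3 interactions and 3 for adding HS to WY in wild-type mice. The median over all probe sets then moved by 0.19 for HS and 0.12 for WY in wild-type mice. Over probe sets above the floor on all arrays it moved by 0.44 and 0.47. In fits of the compared arrays alone, which have fewer samples, it was 0 for HS and 0 for WY+HS against HS in null mice, 1 for WY in wild-type mice, 1 for null against wild-type mice after HS, 0 for HS by genotype and 0 for WY by HS. With the mean of all probe sets of a gene it was 1 for HS and 1 for WY+HS against HS in null mice, 1 for HS by genotype and 1 for WY by HS. With a common median it was 1 for WY in wild-type mice, 1 for HS by genotype and 0 for WY by genotype. On the asinh scale it was 1 for WY in wild-type mice, 0 for HS by genotype and 1 for WY by HS. Scheffe's test gave 1 for WY in wild-type mice, and the fit with trend and robust moderation 1 for HS by genotype and 1 for WY by HS. The higher floor of 33.9, from the 5th percentile, gave 1 for WY by HS. Leaving out 1 array gave 1 to 2 members for WY in wild-type mice, 2 to 4 for WY+HS against HS in null mice, 0 to 1 between control genotypes, 0 to 2 for HS by genotype and 1 to 2 for WY by HS. The cause was not tested. No paired analysis was possible because the replicate numbers are mouse numbers that no 2 groups share. The counts of other pathway genes under other scalings and without mouse 18 were added after seeing the data. Near the floor, as for *Idh3a* and *Idh3b*, signal limits what can be seen.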
